A study of Rattus norvegicus with 5 samples.

Results

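The genes described here encode subunits of the proteasome and enzymes of the ubiquitin pathway. They were chosen by gene symbol alone, as the genes analysed here whose symbol starts like those of proteasome subunits and activators (*Psma* to *Psme*) or of ubiquitin-pathway enzymes (such as *Uba* and *Ube*), with the inducible subunits *Psmb8* and *Psmb9* left out. In all, 39 of the 4736 genes that a probe set named without ambiguity met this rule, and 63 of the 8740 probe sets analysed belonged to them. Where a gene had several, the brightest was read. A total of 25 of the 39 are proteasome genes, and the other 14 are 11 ubiquitin-conjugating (E2) enzymes, 1 ligase (*Ube3a*) and 2 genes with a ubiquitin-related name (*Ubac2* and *Ubald1*). No activating (E1) enzyme was among the 39, and most of the ubiquitin-pathway genes described are conjugating enzymes.

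Cells mark proteins for destruction by attaching chains of ubiquitin, a small protein that an E1 enzyme activates, an E2 enzyme carries and an E3 ligase helps to place on its target. The 26S proteasome then unfolds and cuts the marked protein. Its 20S core is a barrel of alpha rings, which form the gate, and beta rings, which hold the cutting sites. The 19S cap on the barrel binds the ubiquitin chain and feeds the protein in with a ring of ATPases. In neurons this pathway is known for its part in synapse remodelling, and mutations of the human *UBE3A* gene are known to cause a disorder of brain development.

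Primary cultures were made from the hypothalamus of Wistar rat embryos at day 17. Those for GFP+ and GFP+/- cells were transfected by polyethylenimine, 24 hours after seeding, with a plasmid in which the promoter of *Trh*, the gene of thyrotropin-releasing hormone, drives the green fluorescent protein GFP, and were passed through the cell sorter 48 hours later. GFP+ cells were those that the sorter selected for GFP, GFP+/- cells passed it without selection and so still held the GFP+ cells, and NT cells were not transfected. The labels do not say that NT cells passed the sorter. Of the 5 Affymetrix rat arrays, 2 held GFP+ RNA from a pool of 6 experiments, 2 held GFP+/- RNA from a pool of 3, and 1 held NT RNA from a pool of 3. By the labels the arrays of a population are biological replicates, but the paper speaks of aliquots of the same RNA, so p measures the spread between arrays only. Precision is limited by the number of arrays, and NT cells, with 1 array, borrow their spread from the other populations.

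Every population showed proteasome transcripts of each kind. The 39 genes together made up 1.94% and 1.97% of the summed signal on the GFP+ arrays, 2.21% and 1.92% on the GFP+/- arrays and 1.87% on the NT array. A total of 32 of the 39 belonged to the brightest 41% of probe sets (a mean signal of at least 175 over the 5 arrays). The other 7, *Psmd10*, *Ube2d2b*, *Ube2g1*, *Ube2h*, *Ube2m*, *Ube2q2* and *Ube3a*, were dimmer. Arrays of one population lay close for most of the genes, with a median fold of 1.18 between the 2 GFP+ arrays and also of 1.18 between the 2 GFP+/- arrays. Only *Psme4* and *Ube2g1* differed by more than 2-fold between the GFP+ arrays, and only *Psmb3*, *Ube2m* and *Ube2d2b* between the GFP+/- arrays. Over all probe sets 15.6% and 13.4% did so. Among the brightest 41% it was 3.27% and 1.03%, where 1 of the 32 genes (3.12%) did so in either population.

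**Figure D1:**
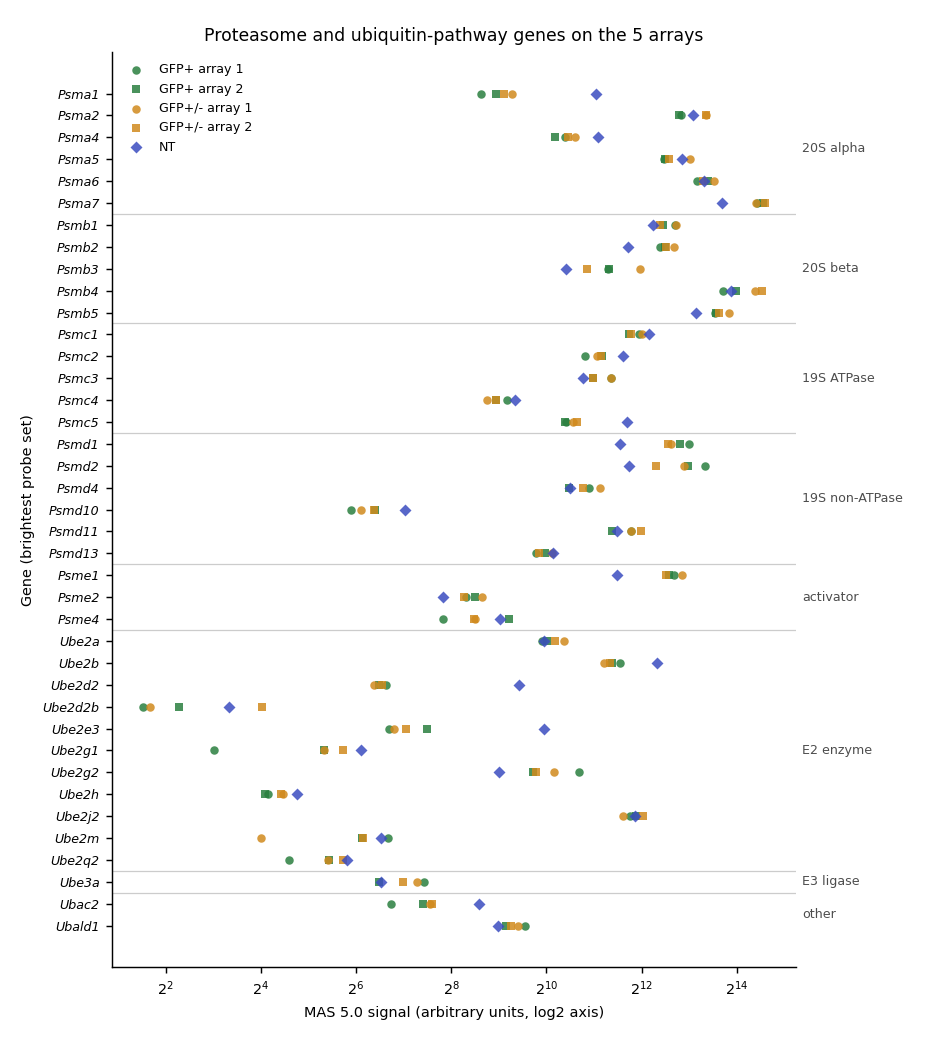
MAS 5.0 signal (log2 axis, arbitrary units) of each of the 39 genes, from its brightest probe set, with 1 point per array (green, GFP+; orange, GFP+/-; blue diamond, NT; circle, array 1; square, array 2). Green and orange points lie close together in most rows, while the NT point of *Psma1*, *Psmc5*, *Ube2d2* and *Ube2e3* stands to the right of the others and that of *Psmd1* and *Psme1* to the left. Signals of different genes come from different probes and are not compared.

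The first comparison asks how cells selected for activity of the *Trh* promoter differed from the unselected culture. None of the 39 genes passed the test in this comparison. Their median log2 difference was -0.11, with 12 genes above 0 and 27 below, while the median of all probe sets was 0.13 and that of the brightest 41% was 0.07. Of the 25 proteasome genes, 5 were above 0 and 20 below. By limma, 0 of 39 passed at an adjusted p under 0.05, as did 0% of all probe sets, and 2 (*Psma2* and *Psmb4*, both with the lower signal in GFP+ cells) had an unadjusted p under 0.05, against 13.9% of all (4.75% with the lower signal). When only the brightest 41% were tested, 4.02% of those passed (144 of 3583) and again 0 of the 32 genes among them. By the ratio of averaged signals, 1 of 39 (*Ube2d2b*, a dim gene) lay past 2-fold, on the lower side, against 13.1% of all probe sets (4.18% on that side). Arrays of both populations did not overlap for 17 genes (4 with GFP+ above, 13 with GFP+ below), against 45.8% of all probe sets (30.4% above, 15.4% below).

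The intervals show how large a difference between the arrays of both populations the test could have missed. The 95% interval lay within 1 log2 unit, a 2-fold difference, on either side of 0 for 26 of the 39 genes, against 33.0% of all probe sets and 67.3% of the brightest 41%. Among these 26 were all 6 alpha subunits and all 5 ATPases. Like p, the intervals hold only the spread between arrays, so they do not bound a difference between cell preparations. For none of the genes does p show that the populations were equal.

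Alpha subunits, which form the gated outer rings of the core, were each lower on average in GFP+ cells, with a median log2 difference of -0.27 over the 6 genes and none past the test. *Psma2* had signals of 7252 and 7087 on the GFP+ arrays, 10446 and 10494 on the GFP+/- arrays and 8619 on the NT array. The GFP+ arrays lay below both others without overlap, and the log2 difference from GFP+/- cells was -0.55 (SE 0.18, 95% interval -0.99 to -0.10, adjusted p = 0.285). Both further *Psma2* probe sets pointed the same way, with -0.58 and -1.06 (adjusted p = 0.283 and 0.247). *Psma7* stood at the other end of the group, with 22140.0 and 23878 on the GFP+ arrays, 21664 and 24536 on the GFP+/- arrays and 13194 on the NT array. Its GFP+ and GFP+/- arrays overlapped (log2 difference -0.0039, SE 0.22). The 4 others lay between these, from -0.41 for *Psma1* to -0.13 for *Psma6*.

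Among the beta subunits, which include the cutting sites, *Psmb4*, a structural subunit, had the most negative difference. It had 13487 and 16169 in GFP+ cells, against 21327 and 23632 in GFP+/- cells and 14985 in NT cells. Both GFP+ arrays lay below both GFP+/- arrays and on either side of the NT array (log2 difference from GFP+/- cells -0.60, SE 0.22, 95% interval -1.16 to -0.047, adjusted p = 0.328). Its further probe sets gave -0.26 and -0.23. *Psmb5*, which carries the chymotrypsin-like site, had 11997 and 12132 in GFP+ against 14558 and 12721 in GFP+/- cells, also without overlap (-0.17, SE 0.20, adjusted p = 0.748). Its further probe sets went the other way, with 0.057 and 0.11 and with overlapping arrays. *Psmb2* and *Psmb3* gave -0.15 and -0.099, and *Psmb1* gave 0.020.

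The ATPases of the cap, which unfold the substrate, had differences close to 0. *Psmc1* had 3945 and 3408 in GFP+ cells, 4120.3 and 3491 in GFP+/- cells and 4550.5 in NT cells, a log2 difference of -0.049 between the first 2 populations (SE 0.18). *Psmc3* had 2617 and 2020 on the GFP+ arrays and the same rounded values, 2617 and 2020, on the GFP+/- arrays, with 1737 in NT cells. *Psmc4* was the only ATPase with a positive difference, 579 and 493 against 433 and 492 (0.21, SE 0.19, adjusted p = 0.675). The 5 ATPases spanned -0.20 to 0.21.

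Of the other cap subunits, the pair that form its scaffold, *Psmd1* and *Psmd2*, had positive differences. *Psmd2* had 10364 and 8035 on the GFP+ arrays, 7600 and 5086 on the GFP+/- arrays and 3426 on the NT array. The GFP+ arrays were above the GFP+/- arrays, but these 2 in turn differed by 1.49-fold, and the log2 difference was 0.55 (SE 0.27, 95% interval -0.10 to 1.21, adjusted p = 0.428). *Psmd1* had 8223 and 7196 in GFP+ cells, against 6302 and 5987 in GFP+/- cells and 3009 in NT cells (0.32 between GFP+ and GFP+/-, SE 0.18, adjusted p = 0.498). The ubiquitin receptor *Psmd4* and the subunits *Psmd11* and *Psmd13* gave -0.27, -0.31 and -0.10. The dim *Psmd10*, an assembly chaperone of the cap, gave -0.11. Among activators that open the core without ubiquitin, *Psme1* and *Psme2*, which form one ring, gave -0.045 and -0.048, and *Psme4* gave 0.040 with a 2.61-fold gap between the GFP+ arrays.

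E2 enzymes had a median of 0.0057, with 6 above 0 and 5 below. *Ube2j2*, an E2 of the endoplasmic reticulum, had 3472 and 3753 in GFP+ cells, 3106 and 4162 in GFP+/- cells and 3723 in NT cells. *Ube2b*, an E2 of DNA repair, had 3007 and 2647 against 2376 and 2602 (0.18, SE 0.17, adjusted p = 0.684), although its further probe sets gave -0.45 and -0.15. *Ube2g2*, an E2 of protein degradation from the endoplasmic reticulum, had 1634 and 843 against 1142 and 883, so that the populations overlapped (0.23, SE 0.34). The outermost differences of all 39 belonged to dim E2 genes. *Ube2m*, which conjugates NEDD8 rather than ubiquitin, had 102 and 69.6 against 16.1 and 70.9 (1.32, SE 0.75, adjusted p = 0.509). *Ube2g1* had 8.03 and 40.1 against 40.2 and 53.0 (-1.36, SE 0.82, adjusted p = 0.529). In each of these, 1 array stood apart from the other in its own population. *Ube2d2b* had 2.89 and 4.87 against 3.20 and 16.2, and *Ube2q2* 23.9 and 43.3 against 42.5 and 52.6. The ligase *Ube3a* had 172 and 89.5 against 155 and 126, with 92.3 in NT cells. *Ubac2*, an endoplasmic reticulum protein with a ubiquitin-binding domain, had 107 and 170.2 against 188 and 194 (-0.50, SE 0.30, adjusted p = 0.529), and *Ubald1* had 750 and 568 against 674 and 608.

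**Figure D2:**
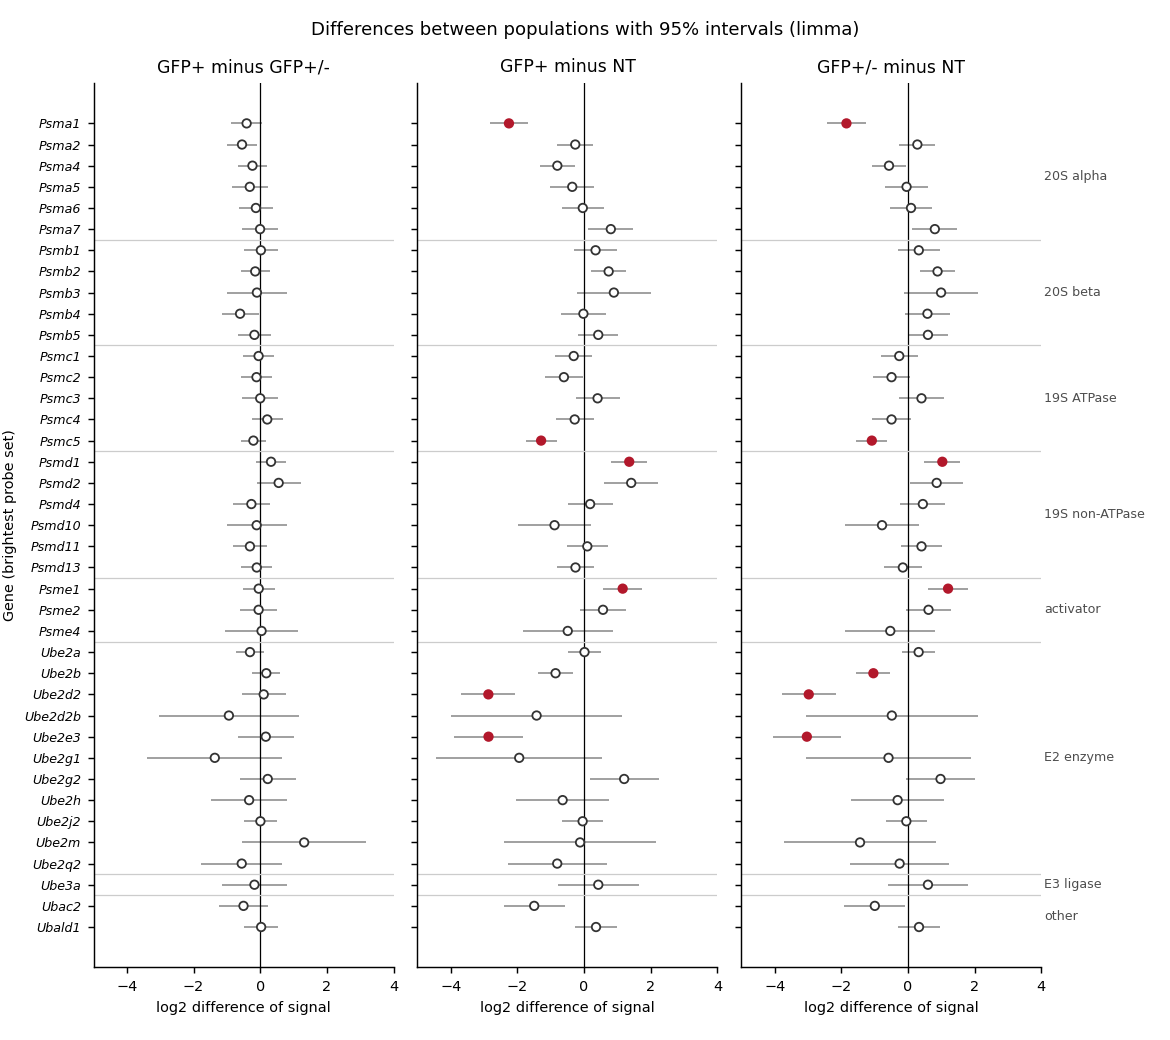
Log2 difference of signal for each of the 39 genes (points) with its 95% interval (lines) in the 3 comparisons, from limma; filled red points passed the test. In GFP+ against GFP+/- cells no point is filled and most intervals are short and cross 0, while 6 points are filled for GFP+ and 7 for GFP+/- against NT cells.

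Both transfected populations were then set against NT cells. Both comparisons use the same NT array, so their values are given side by side and do not support each other. Lower in GFP+ than in NT cells were the alpha subunit *Psma1*, the ATPase *Psmc5* and the E2 enzymes *Ube2d2* and *Ube2e3*, and higher were *Psmd1* and *Psme1*. In GFP+ against NT cells 6 of 39 passed the test (2 higher, 4 lower), against 8.44% of all probe sets (4.38% higher, 4.06% lower), and 14 had an unadjusted p under 0.05, against 24.3%. All 6 were among the brightest 41%, of which 16.5% passed in the same test, so the share of the 32 genes there (18.8%) was near theirs. That bound is a mean over all 5 arrays, NT included. *Ube2d2* (means of 94.4 in GFP+ and 87.8 in GFP+/- cells) and *Ube2e3* (142 and 122) reached it only through their NT signal. The same held for *Ubac2* (139 and 191), whose transfected arrays together averaged below the bound. The shares among the brightest 41% are therefore not independent of the differences from NT cells. In GFP+/- against NT cells 7 passed (2 higher, 5 lower), against 9.23% (4.2% higher, 5.03% lower), and 12 had an unadjusted p under 0.05, against 24.9%. Here too all 7 were among the brightest 41%, with 21.9% of the 32 genes against 18.2% of those probe sets. Past 2-fold were 11 genes (4 higher, 7 lower) and 9 genes (3 higher, 6 lower), against 26.8% (14.5% higher, 12.3% lower) and 27.3% (12.1% higher, 15.2% lower) of all probe sets. The median log2 difference was -0.12 for GFP+ cells, where that of all probe sets was 0.06, and -0.04 for GFP+/- cells, where that of all was -0.09.

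The number of calls moved with the processing, for these genes and for all probe sets alike. When only the brightest 41% were tested, 13 of 32 genes passed for GFP+ (6 higher, 7 lower, against 31.6% of those probe sets) and 9 for GFP+/- cells (4 higher, 5 lower, against 32.4%). Which probe sets were tested there depends on the NT signal, so these counts are not independent of the differences from NT cells. With a prior variance that does not follow the intensity, 0 genes passed in either comparison (2 and 2 of all probe sets). When any 1 array of either transfected population was left out, 0 of 39 genes and 1 of all 8740 probe sets passed for GFP+ against NT cells, so that a loss of the calls says nothing particular to these genes. The log2 differences of the 6 genes kept their sign, from -2.94 to -2.80 for *Ube2d2*, for instance, and from 1.26 to 1.45 for *Psmd1*. For GFP+/- against NT cells, 0 genes and 1 of all probe sets passed without either GFP+/- array, and 3 genes (all lower) without either GFP+ array, where 323 and 333 of all probe sets passed. Scaled to equal medians, the arrays gave 1 higher and 4 lower gene for GFP+ cells (8.15% of all probe sets passed), and 3 higher and 4 lower for GFP+/- cells (9.73% of all), where 6 were then past 2-fold higher and 3 lower. When all probe sets of a gene were averaged, 0 passed higher and 6 lower in each comparison, against 8.1% and 8.9% of everything tested in that way.

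*Psma1* had signals of 395 and 488 on the GFP+ arrays, 618 and 549 on the GFP+/- arrays and 2096 on the NT array. All 4 transfected arrays lay far below the NT array, with log2 differences of -2.26 for GFP+ (SE 0.23, adjusted p = 0.0113) and -1.85 for GFP+/- cells (SE 0.23, adjusted p = 0.0152). *Psmc5* had 1356 and 1351, 1515 and 1604, and 3309.9 in NT cells (-1.29, SE 0.19, adjusted p = 0.0204, and -1.09, SE 0.19, adjusted p = 0.0277). *Ube2d2*, an E2 of broad use, had 99 and 89.8, 82.5 and 93.2, and 691 in NT cells (-2.87, SE 0.33, adjusted p = 0.0145, and -2.98, SE 0.33, adjusted p = 0.0121). A probe set that *Ube2d2* shares with *Ube2d3* did not repeat this, with 281 and 329.9 in GFP+ cells, against 339 and 432 in GFP+/- cells and 363 in NT cells. *Ube2e3* had 103 and 180.4, 111 and 132, and 994 in NT cells (-2.87, SE 0.41, adjusted p = 0.0199, and -3.04, SE 0.41, adjusted p = 0.0175). *Ube2b*, with 5110.5 in NT cells, passed in GFP+/- cells (-1.04, SE 0.21, adjusted p = 0.0373) and not in GFP+ cells (-0.86, SE 0.21, adjusted p = 0.0648). That pair of values differed by 0.18, which did not pass (above).

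On the other side, *Psmd1*, whose signals stand above, had log2 differences of 1.35 for GFP+ (SE 0.22, adjusted p = 0.0242) and 1.03 for GFP+/- cells (SE 0.22, adjusted p = 0.0442). *Psme1* had 6549 and 6144 in GFP+ cells, 7343 and 5831 in GFP+/- cells and 2844 in NT cells (1.16, SE 0.24, adjusted p = 0.0448, and 1.20, SE 0.24, adjusted p = 0.0372). Scaled to equal medians, it no longer passed in GFP+ cells (1.11, adjusted p = 0.0511). *Psmd2* had the highest difference of GFP+ from NT cells and did not pass (1.41, SE 0.32, adjusted p = 0.0571), and it gave 0.86 in GFP+/- cells (adjusted p = 0.175). *Psma7* gave 0.80 in GFP+ (adjusted p = 0.142) and 0.81 in GFP+/- cells (adjusted p = 0.138). *Ube2g2* (510.3 in NT cells) gave 1.20 and 0.98, adjusted p = 0.148 and 0.226. *Ubac2* (381 in NT cells) gave -1.50 (adjusted p = 0.0675) and -0.996 (adjusted p = 0.168). The dim E2 genes whose signals stand above had wide errors here as well. *Ube2g1* (69.2 in NT cells) gave -1.95 in GFP+ cells (SE 1.00, adjusted p = 0.317), *Ube2d2b* (10.1 in NT cells) gave -1.43 in GFP+ cells (SE 1.04, adjusted p = 0.489), and *Ube2m* (91.7 in NT cells) gave -1.44 in GFP+/- cells (SE 0.92, adjusted p = 0.417).

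Beta subunits had a positive difference for 4 of 5 genes in GFP+ and 5 of 5 in GFP+/- against NT cells (medians 0.42 and 0.60), and none passed. *Psmb3*, for instance, had 2516 and 2533 on the GFP+ arrays, 3975 and 1840.1 on the GFP+/- arrays and 1359 on the NT array (0.89 and 0.99, SE 0.44 each), and *Psmb2* had 5371 and 5755, 6553 and 5806, and 3337 in NT cells (0.74 and 0.89, SE 0.21 each). ATPases went the other way for 4 of 5 genes in both comparisons, with medians of -0.31 and -0.49. E2 enzymes, of which several are dim, were below 0 for 9 of 11 genes in both, with medians of -0.81 and -0.49. Over all probe sets, 47.2% of differences were below 0 in GFP+ and 54.9% in GFP+/- against NT cells. By their brightest probe sets, genes of one complex stood on both sides of the NT array, but other probe sets of some of them differed in sign (below).

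Promoter sequences are shown for the 4 proteasome genes that passed against NT cells, *Psma1* and *Psmc5* on the lower side and *Psmd1* and *Psme1* on the higher side, so that both sides can be read next to each other. They are from RefSeq for assembly GRCr8, from 250 bases before to 50 bases after the start of the gene, written 5′ to 3′ on the strand of the gene, with capitals for a motif match.
Psma1, chr1:177887808-177888107, minus strand: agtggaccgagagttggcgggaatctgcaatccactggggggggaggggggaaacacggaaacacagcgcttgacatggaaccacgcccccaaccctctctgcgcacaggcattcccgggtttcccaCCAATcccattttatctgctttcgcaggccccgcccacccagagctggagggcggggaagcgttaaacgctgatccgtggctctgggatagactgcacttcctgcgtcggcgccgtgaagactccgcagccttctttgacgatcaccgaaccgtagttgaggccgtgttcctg
Psmc5, chr10:91687303-91687602, plus strand: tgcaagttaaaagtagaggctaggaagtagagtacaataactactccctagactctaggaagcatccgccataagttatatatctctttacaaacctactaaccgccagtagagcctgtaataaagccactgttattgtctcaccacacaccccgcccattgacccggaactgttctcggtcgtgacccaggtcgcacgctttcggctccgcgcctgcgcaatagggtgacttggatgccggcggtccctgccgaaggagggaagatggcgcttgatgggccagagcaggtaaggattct
Psmd1, chr9:94157721-94158020, plus strand: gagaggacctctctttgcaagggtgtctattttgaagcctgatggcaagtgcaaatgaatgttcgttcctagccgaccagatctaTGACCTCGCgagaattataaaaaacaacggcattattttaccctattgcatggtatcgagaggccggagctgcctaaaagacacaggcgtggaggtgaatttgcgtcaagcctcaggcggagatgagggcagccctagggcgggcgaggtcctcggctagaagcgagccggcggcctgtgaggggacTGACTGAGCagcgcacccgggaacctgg
Psme1, chr15:33038721-33039020, plus strand: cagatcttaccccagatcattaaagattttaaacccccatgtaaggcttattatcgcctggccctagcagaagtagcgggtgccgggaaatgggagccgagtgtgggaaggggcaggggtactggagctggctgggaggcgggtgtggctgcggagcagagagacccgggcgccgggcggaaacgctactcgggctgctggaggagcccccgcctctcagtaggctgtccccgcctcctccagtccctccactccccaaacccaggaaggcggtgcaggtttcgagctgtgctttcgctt
A total of 3 motifs were searched on both strands, the core of the antioxidant response element (TGACNNNGC), the CCAAT box (CCAAT) and an ETS core (CCGGAAG). Matches to different motifs may share bases. The capitals mark 2 matches to the first in *Psmd1* and 1 CCAAT in *Psma1*, and the promoters of *Psmc5* and *Psme1* hold none of the 3. Of the 38 members with a promoter in the table (*Psma7* has no entry), 9 held the first motif (23.7%, against 12.1% of all 33469 promoters of that length), 17 a CCAAT (44.7% against 37.5%) and 12 the ETS core (31.6% against 8.75%). The members' promoters were also richer in G and C, 61.5% against 52.7%, and the part of base composition in these shares was not tested. A match is a description of letters and does not show binding.

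Different probe sets of one gene gave different answers against NT cells. Of the 11 genes with several probe sets among the brightest 41%, the log2 differences of 5 spread over more than 1 unit in GFP+ against NT cells (*Psma2*, *Psma5*, *Psmd1*, *Psme1* and *Ube2b*), and 4 had probe sets of opposite sign (*Psma7*, *Psmd1*, *Psmd4* and *Psme1*). In GFP+/- against NT cells 6 spread over more than 1 unit (*Psmb4* as well), and 6 had opposite signs (*Psma2*, *Psmb4*, *Psmb5*, *Psmd1*, *Psmd4* and *Psme1*). In GFP+ against GFP+/- cells no gene had such a spread, the widest range was 0.63 (*Ube2b*), and 2 had opposite signs (*Psmb5* and *Ube2b*). *Psma2* gave -0.27 in GFP+ against NT cells from its brightest probe set (SE 0.22, adjusted p = 0.550). Its further probe sets had 468 and 590.1 in GFP+ against 3093 in NT cells, and 63.4 and 59.3 against 780.3, with differences of -2.56 (adjusted p = 0.00808) and -3.67 (adjusted p = 0.0112). The last of these probe sets counts among the brightest 41% only through its NT signal, since its means were 61.3 in GFP+ and 130 in GFP+/- cells. *Psma5* likewise gave -0.36 from its brightest probe set, with 5703 and 5788 in GFP+ and 7356 in NT cells, and -2.06 from another, with 276 and 313 against 1222 (adjusted p = 0.0132). *Psma7* gave -0.050 from a further probe set in GFP+ against NT cells, where its brightest gave 0.80, and *Psmd4* gave 0.18 from its brightest and 0.32 and -0.43 from others. In GFP+/- against NT cells *Psmb4* gave 0.58 from its brightest and -0.62 from another probe set, *Psmb5* 0.60 and -0.083, and *Psmd4* 0.45 and -0.36.

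The calls of *Psmd1* and *Psme1* rested on 1 probe set each, which others of the same gene did not repeat. *Psmc5*, *Ube2d2* and *Ube2e3* had only 1 probe set of their own, so their calls could not be checked in this way. Further *Psmd1* probe sets among the brightest 41% had 4462 and 5620.2 in GFP+ against 5212 in NT cells, and 1270.5 and 1234 against 1344, which gave -0.058 and -0.10. A further *Psme1* probe set had 1194 and 1590.3 against 1766 (-0.36, adjusted p = 0.452). Averaged over their probe sets, the log2 differences were 0.35 for *Psmd1* (adjusted p = 0.555) and 0.22 for *Psme1* (adjusted p = 0.638). *Ube2b* had negative differences in all 3 probe sets, -0.86, -0.74 and -1.82. The arrays also differed in the controls that compare probe sets at both ends of a transcript. The ratio of the 3′ to the 5′ probe set was 14.6 and 17.6 for *Gapdh* in GFP+ cells, against 12.7 and 14.2 in GFP+/- cells and 5.45 in NT cells, and for beta-actin 22.9 and 18.7, 31.4 and 14.4, and 10.9. The NT array had the lowest ratio for both controls, and the part of this in the differences from NT cells was not tested.

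**Figure D3:**
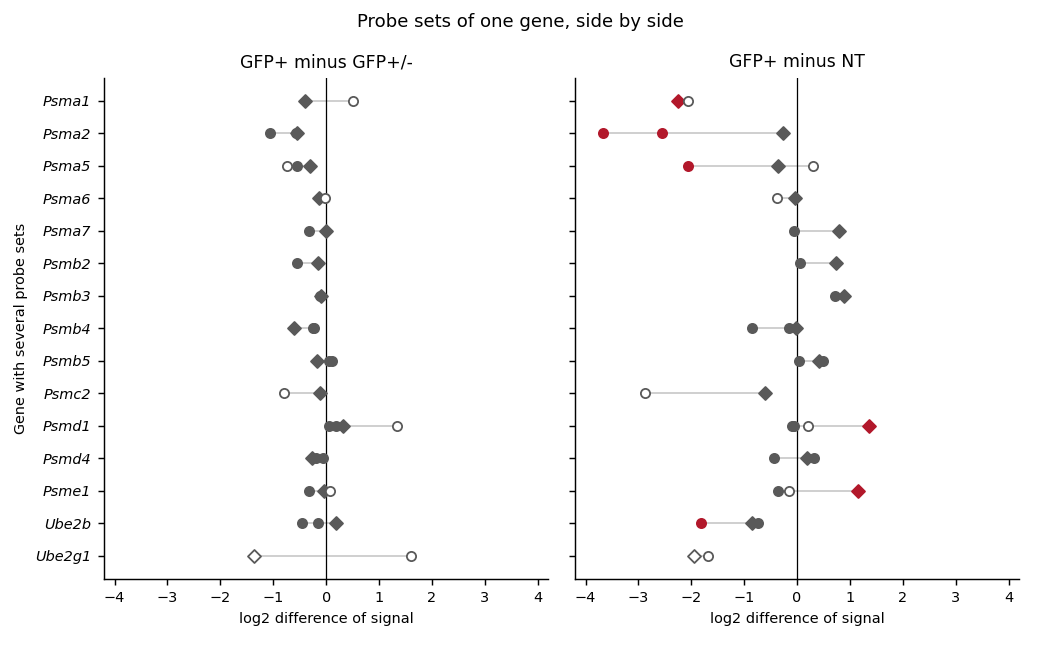
Log2 difference of every probe set of the 15 genes that have several, for GFP+ against GFP+/- cells and GFP+ against NT cells (diamond, the probe set read for the gene; circle, others; red, past the test; white, below the bound of the brightest 41%). Filled points of a gene lie close together in the first comparison and spread widely in the second, most of all for *Psma2*. The lowest *Psma2* point there counts among the brightest 41% only through its NT signal.

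**Figure D4:**
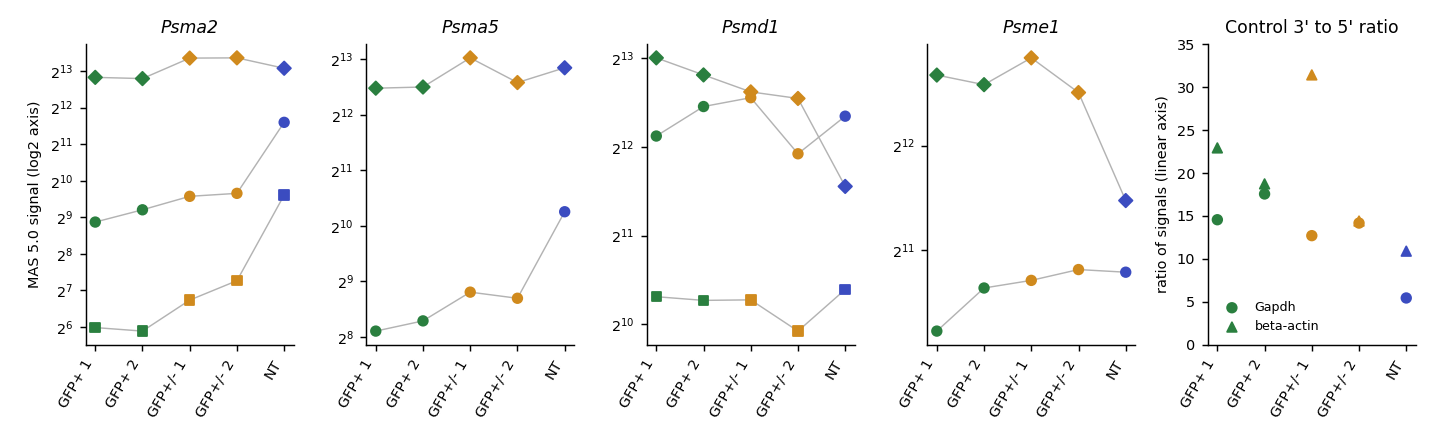
Signal (log2 axes) on each array of the probe sets among the brightest 41% for *Psma2*, *Psma5*, *Psmd1* and *Psme1* (lines join 1 probe set), and, on a linear axis, the 3′ to 5′ ratio of *Gapdh* (circles) and beta-actin (triangles). The NT array, in blue, is highest for the lower 2 probe sets of *Psma2* and lowest for the upper one of *Psmd1* and of *Psme1*, and it has the lowest control ratios.

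Other genes of the pathway, from lists chosen by name, held no gene that passed in sorted against unselected cells. Of these lists, that of ligases also holds subunits of ligase complexes and the E2 enzyme *Cdc34*. The counts were 0 of 11 genes in the ligase list, 0 of 4 deubiquitinating enzymes, 0 of 5 segregase and shuttle genes, 0 of 3 ubiquitin-like modifiers, 0 of 2 assembly genes, 0 of 2 inducible subunits and 0 of 5 factors known to act on proteasome transcription. At an unadjusted p under 0.05 these counts were 3, 1, 0, 0, 1, 0 and 0, together 5 of the 32 listed genes, beside 13.9% of all probe sets. *Mdm2*, the ligase of p53, had the widest gap of these genes, with 1180.1 and 1519 in GFP+ cells, 157 and 156 in GFP+/- cells and 153 in NT cells. Its GFP+ arrays stood far above all others (log2 difference from GFP+/- cells 3.10, SE 0.21, adjusted p = 0.0829), but its further probe sets, in the same comparison, had ratios of averaged signals of 1.51, 0.969 and 7.83. *Sem1*, a small subunit of the cap, had 4374 and 4514 on the GFP+ arrays, 8063 and 11565 on the GFP+/- arrays and 2782 on the NT array (-1.12 between GFP+ and GFP+/-, SE 0.23, adjusted p = 0.160). The assembly chaperone *Pomp* gave -0.13 in that comparison.

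Against NT cells, 6 of these 32 listed genes passed for GFP+ and 4 for GFP+/- cells, beside 8.44% and 9.23% of all probe sets. Most of the listed genes were among the brightest 41%, of which 16.5% and 18.2% passed in the same test. In the order above the counts were 2, 2, 1, 0, 0, 1 and 0 for GFP+, and 0, 1, 1, 0, 1, 1 and 0 for GFP+/- cells. *Uchl1*, a deubiquitinating enzyme abundant in neurons, had 2118 and 1462 in GFP+ cells, against 1360 and 1607 in GFP+/- cells and 5111 in NT cells (-1.54, adjusted p = 0.0338, and -1.79, adjusted p = 0.0234), and both of its further probe sets were lower too. *Nsfl1c*, a cofactor of the segregase *Vcp*, had 10729 and 9297.5, 9837 and 11296, and 4075 (1.29, adjusted p = 0.0346, and 1.37, adjusted p = 0.0289). A further *Nsfl1c* probe set pointed the same way but did not repeat these calls. It gave 0.32 in GFP+ (adjusted p = 0.413) and 0.40 in GFP+/- cells (adjusted p = 0.296). Ligases passing in GFP+ cells were *Mdm2* (3.13, adjusted p = 0.00808) and *Trim63* (1.77, adjusted p = 0.0457). Their further probe sets, all dim, did not pass in that comparison. These gave 0.25, 0.78 and 0.43 for *Mdm2* and 0.49 for *Trim63*. The deubiquitinating enzyme *Usp19* passed in GFP+ cells (1.04, adjusted p = 0.0403) and *Sem1* in GFP+/- cells (1.80, adjusted p = 0.0227). By the brightest probe set no ubiquitin-like modifier and none of the transcription factors passed. A dim further probe set of *Nfyb*, a subunit of the factor that binds the CCAAT box, did (-3.11 in GFP+ cells, adjusted p = 0.0416), where the brightest gave -0.60. A dim further probe set of *Vcp* was also lower (-1.79 in GFP+ and -1.78 in GFP+/- cells, adjusted p = 0.0457 and 0.0440).

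The inducible subunits, which replace beta subunits of the core in immune cells, had higher signals in transfected cells. *Psmb9* had 901 and 496 in GFP+ cells, 545 and 569.5 in GFP+/- cells and 73.9 in NT cells. All 4 transfected arrays lay above the NT array, with log2 differences of 3.18 (SE 0.38, adjusted p = 0.0149) and 2.91 (SE 0.38, adjusted p = 0.0157). *Psmb8* had 202 and 254, 234 and 166, and 106, and did not pass (1.09 and 0.89, adjusted p = 0.126 and 0.193). In GFP+ against GFP+/- cells the 2 genes gave 0.26 and 0.20, with overlapping arrays. A dimmer probe set of *Psmb9* went the other way there (-0.28, adjusted p = 0.745).

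Markers of other cells moved with the populations and give the setting of these values. Summed over 14 fibroblast and matrix genes, the signal was 19296 to 28439 on the GFP+ arrays, 55220.4 to 55847 on the GFP+/- arrays and 25760 on the NT array, with 12 of 14 lower in GFP+ than in GFP+/- cells at an unadjusted p under 0.05 and none at an adjusted one. Of all probe sets, 4.75% were lower at that unadjusted p. Summed over 12 neuron genes, the signal was 28427 to 32709, 20927 to 22784 and 42105, with 12 of 12 differences above 0 in GFP+ against GFP+/- cells (median log2 difference 0.60). Over all 8740 probe sets, 5287 differences were above 0. Endothelial and mural genes (9) summed to 2351 to 4254, 9712 to 11876 and 1969. That sum rested on 3 genes of smooth muscle, *Acta2*, *Tagln* and *Cnn1*, each with less than 0.5 of its GFP+/- signal in GFP+ cells, while 6 of the 9 had differences above 0 (median 0.089). Erythroid genes (4) summed to 7030.1 to 7230.4, 10626 to 15311 and 1002. Astrocyte genes (9) summed to 31206 to 35483, 32927 to 34456 and 29551, oligodendrocyte genes (8) to 1688 to 1736, 1612 to 1681 and 1482, and microglia genes (9, of which 1 among the brightest 41%) to 1149 to 1281, 641 to 824 and 1076. In GFP+ against GFP+/- cells 8 of the 9 microglia genes also had differences above 0 (median 0.61). For astrocyte genes it was 3 of 9 and for oligodendrocyte genes 4 of 8. Apart from the astrocyte sum, none of these sums overlapped between GFP+ and GFP+/- arrays, and the part of cell composition in any value above was not tested. In such mixed RNA fewer cells of a type and less RNA per cell cannot be told apart.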

How the data were processed

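RNA of 2 GFP+, 2 GFP+/- and 1 NT sample was measured on Affymetrix rat arrays. The authors summarised each probe set with MAS 5.0 as a linear signal intensity and scaled each array to one mean. With 2% trimmed at both ends, the deposited intensity values averaged 501 on every array, which is another target than the methods state. Detection calls were not used. Arrays have no read depth.

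A total of 59 control probe sets were left out. Of the 8740 others, the platform annotation named 1 gene for 7006, several for 308 and none for 1426. All 39 genes described matched RefSeq names by gene ID. Signals under 1 were set to 1 before log2. Differences were fitted in R 4.3.3 with limma 3.58.1, with a mean for each population over all 5 arrays, without covariates. The prior variance followed the intensity (trend). Residual degrees of freedom were 2. Benjamini-Hochberg adjustment ran over all 8740 probe sets, and the threshold was 0.05. The ratio of averaged signals at 2-fold follows the study's methods. The fit was tested on simulated data. Counts, plots and promoter searches used Python 3.11.15, pandas 2.3.3, numpy 2.4.6 and matplotlib 3.10.9.

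Values on every array are given for the member with the highest mean signal of each role and for the 6 highest and 6 lowest differences of each comparison. Other probe sets among the brightest 41% are given where their direction differs, and up to 4 genes of each further list. *Psmc5* in GFP+ against NT cells, *Psma7*, *Psmc3* and *Psmb5*, all other members that passed the test, and genes of the further lists that passed against NT cells were added after their values were seen. The members and lists were chosen with earlier results of these data known. Alternatives were quantile normalization, equal medians, 16 added to each signal, the brightest 41% alone, a prior without a trend, averaging all probe sets of a gene, only the GFP+ and GFP+/- arrays, a replicate block, and leaving out 1 transfected array at a time.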

Additional observations from a re-analysis of the deposited data

How the results depend on the processing

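Between GFP+ and GFP+/- cells 0 of the 39 genes passed under every alternative tried, and their median log2 difference stayed below 0. It was -0.11, -0.26 at equal medians, and -0.21 to -0.062 with 1 array left out. Equal medians and quantile normalization moved the median of all probe sets in that comparison from 0.13 to -0.028 and -0.0045. Past 2-fold were 2 genes with quantile normalization, 2 at equal medians, 0 with 16 added, 0 among the brightest 41%, and 0 to 3 with 1 array left out. GFP+ and GFP+/- arrays share replicate numbers, but same-numbered arrays deviated together only weakly (r = 0.063 over 8740 probe sets, 0.20 over the brightest 3583, across probe sets, which are not independent), so no pairing was assumed. With a replicate block 0 members and 2 of all probe sets passed. No paired analysis was possible against NT cells because the NT array has no replicate number. For GFP+ against NT cells 13 genes passed among the brightest 41% (6 higher, 7 lower; 31.6% of those probe sets), 0 with a prior without a trend and 0 to 0 with 1 array left out, where 9 to 14 were past 2-fold and the median was -0.15 to -0.11. For GFP+/- against NT cells 0 passed with a prior without a trend and 0 to 3 with 1 array left out, where 5 to 13 were past 2-fold and the median was -0.044 to 0.18. Among the brightest 41% the median was 0.30, and at equal medians 0.071. The bound of the brightest 41% includes the NT signal, so values from it are not independent of the differences from NT cells. Leaving out 1 array leaves 1 residual degree of freedom. Of 387 alternative values of 37 gene differences, 311 kept direction and side of the threshold, 64 no longer passed, 7 newly passed and 5 changed sign. The last were *Ube2g1* (0.13) and *Ube2b* (-0.14) between GFP+ and GFP+/- cells and *Psmd1* (-0.12) between GFP+/- and NT cells when all probe sets of a gene were averaged, *Ube2d2b* (0.23 without GFP+/- replicate 2, within -2.11 to 0.23 over arrays left out), and *Ube2g2* (-0.25 without GFP+ replicate 1, within -0.25 to 0.70). Where a call changed, the cause was not tested.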

Other observations

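Probe sets that the annotation ties to several genes were not counted among the members, and some carry proteasome genes. The probe set of the alpha subunit *Psma3* and its near copy *Psma3l* had signals of 795 and 1154 in GFP+ cells, against 1446 and 1645 in GFP+/- cells and 3948 in NT cells. All 4 transfected arrays lay below the NT array, with log2 differences of -2.04 (SE 0.28, limma adjusted p = 0.0171) and -1.36 (SE 0.28, adjusted p = 0.0400), and GFP+ lay below GFP+/- cells without passing (-0.69, SE 0.23, adjusted p = 0.286). The beta subunit *Psmb6*, which carries the caspase-like site, and its near copy *Psmb6l1* share a pair of probe sets. The brighter had 1519 and 1569.9 in GFP+ cells, 1907 and 1612 in GFP+/- cells and 799 in NT cells, higher in GFP+ (0.95, SE 0.21, adjusted p = 0.0492) and GFP+/- (1.13, SE 0.21, adjusted p = 0.0304) than in NT cells. The dimmer pointed the same way without passing (0.44 and 0.73, adjusted p = 0.365 and 0.138). Which of the near copies gave these signals cannot be told apart. A probe set shared by the activator *Psme3* and unrelated genes had 81.6 and 60.1 on the GFP+ arrays, 62.7 and 63.7 on the GFP+/- arrays and 41.2 on the NT array.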
